A study of Homo sapiens with 4 samples.

Results

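Amino acid transporter genes of the solute carrier (SLC) families SLC1, SLC3, SLC7, SLC36, SLC38 and SLC43 were examined in SK-MEL-28 cells, an established human melanoma cell line. Members were set by a rule on the gene symbol, which gave 40 of the 25268 symbols in the table. The rule and the gene lists used further on were chosen with earlier results of these data known. The cells carried either an empty pTRIPZ vector (vector cells) or a MYC gene under a Tet-inducible promoter (MYC-inducible cells), both by lentiviral transduction, and each line was sampled untreated and after 0.5 μg/ml doxycycline (Dox) for 54 h. Both lines were selected with geneticin, so that treatment was shared by all groups. There were 4 libraries, 1 per condition. No difference between conditions therefore had a replicate, and no p-value is given. Levels are FPKM, fragment counts scaled to transcript length and to the mapped fragments of the library, so that levels can be set side by side between genes.

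These carriers move amino acids across the plasma membrane or the membrane of the lysosome. SLC1 holds sodium-coupled carriers of glutamate and of small neutral amino acids. SLC7 proteins are either cationic amino acid transporters or light chains, which reach the membrane as heterodimers with a heavy chain of the SLC3 family. SLC38 and SLC36 hold sodium-coupled and proton-coupled carriers, and SLC43 holds facilitated carriers. MYC is known to promote glutamine uptake in proliferating cells, and in melanocytes and melanoma cells cystine import bears on both redox balance and pigment.

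All 8 melanocyte markers examined averaged 1 FPKM or more. Their summed level was 8433 to 8578 FPKM in the 3 libraries without induced MYC and 4666 FPKM in MYC-inducible cells with Dox, and its part in the results below was not tested. Among defining markers of other cell types, COL3A1, KRT5 and KRT1 were listed at 0 in each library. Of the others, LUM had 26.0 to 31.5 FPKM and KRT10 13.8 to 18.0 FPKM. MYC itself had 58.3 FPKM in vector cells, 54.8 FPKM in vector cells with Dox, 76.5 FPKM in MYC-inducible cells and 87.1 FPKM in MYC-inducible cells with Dox. The difference with Dox in MYC-inducible cells was thus below 1.5-fold. The library called induced here is so named by its line and treatment, not by its MYC level in these data. For MYC-inducible SK-MEL-28 cells given Dox, the paper reports increased MYC mRNA by RT-PCR and increased activity of a reporter of MYC transcriptional activity. The depth, estimated from the lowest values, was approximately 35400000 to 42500000 fragments per library.

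Averaged over the 4 libraries, 20 of the 40 members reached 1 FPKM, 13 had lower values and 7 were listed at 0 in every library. Those at 0 were SLC1A6, SLC1A7, SLC7A3, SLC7A13, SLC36A2, SLC38A4 and SLC38A11. At this depth, 3 fragments would correspond to approximately 0.0123 to 0.0454 FPKM for these genes, which is the level that a count of 0 still allows. The 6 highest members carried 90.2% to 91.3% of the summed FPKM of the families. They were the same genes in each library, namely SLC3A2, SLC43A3, SLC1A5, SLC1A4, SLC7A5 and SLC7A8. The summed level of all 40 members was 892 FPKM in vector cells and 953 FPKM after Dox. In MYC-inducible cells the sum was 902 FPKM and 958 FPKM after Dox.

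**Figure D1:**
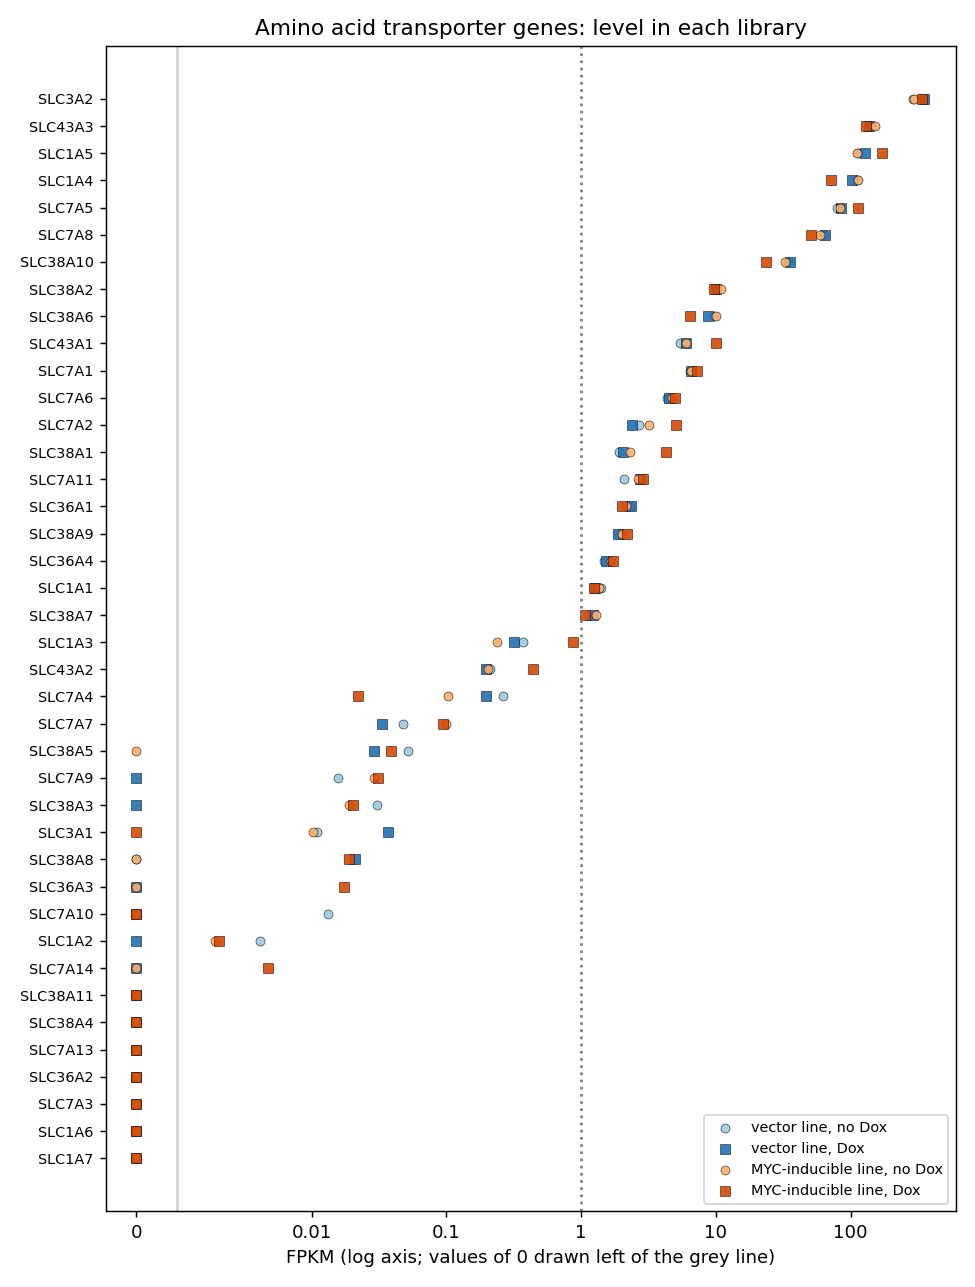
FPKM (log axis) of the 40 members in each of the 4 libraries, ordered by their mean, with the dotted line at 1 FPKM and values of 0 drawn left of the grey line. SLC3A2 lies highest at 292 to 349 FPKM, 20 members lie above a mean of 1 FPKM, and 7 have no value above 0.

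Several of the low members rested on single fragments. SLC1A2, a glutamate transporter best known from glia, had values equal to 2, 0, 1 and 1 fragments in vector cells, vector cells with Dox, MYC-inducible cells and MYC-inducible cells with Dox. The heavy chain SLC3A1 and its light chain SLC7A9, the pair mutated in cystinuria, had at most 3 and 2 fragments in a library. No change is read from such values. SLC1A3, another glutamate transporter, had 0.369, 0.315, 0.238 and 0.871 FPKM in the same order of libraries. SLC43A2, a branched-chain amino acid carrier, had 0.212, 0.197, 0.203 and 0.439 FPKM, and SLC7A4 had 0.265, 0.197, 0.103 and 0.0220 FPKM. All 3 are below the limit of 1 FPKM and were not included in counts of changes, except where the filter was dropped as an alternative. The induced library was the highest for SLC1A3 and SLC43A2 and the lowest for SLC7A4. For SLC7A4 the values correspond to approximately 24.2, 16.2, 10.1 and 2.02 fragments in the same order, so no change is read from them.

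The question of the main comparison was how expression differed after MYC induction, and the vector line gave the effect of Dox in cells without the inducible MYC gene. Changes are differences of log2(FPKM + 0.1) and are given for the 20 members averaging 1 FPKM or more. In MYC-inducible cells, 4 of these 20 members were at least 1.5-fold higher with Dox, against 5.90% of the 11147 genes that averaged 1 FPKM or more. These were SLC38A1, SLC43A1, SLC7A2 and SLC1A5. SLC1A4 and SLC38A6 were at least 1.5-fold lower, that is 2 of 20, where the share over all genes was 8.85%. The remaining 14 members lay within 1.5-fold. Of the 6 calls at 1.5-fold, 3 were lost with another scaling or pseudocount. SLC1A5 came to 0.56 on the log2 scale when libraries were rescaled to the same sum, and SLC7A2 and SLC38A6 came to 0.54 and -0.57 with a pseudocount of 1. The median log2 change of the 20 members was 0.04 with a range from -0.66 to 0.86, and the median of all genes was -0.03. In bulk RNA, less RNA per cell cannot be told apart from fewer cells carrying it.

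In vector cells, none of the 20 members changed 1.5-fold with Dox. Over all genes, 0.709% were at least 1.5-fold higher and 0.440% at least 1.5-fold lower. The member changes in vector cells ran from -0.17 for SLC7A2 to 0.39 for SLC7A11, with a median of 0.03 beside 0.01 for all genes. The untreated lines also differed by less than 1.5-fold for each of the 20 members, where 0.592% of all genes were higher and 0.287% lower in the MYC-inducible line. When the 2 lines were compared after Dox, 3 members were at least 1.5-fold higher in MYC-inducible cells, beside 6.50% of all genes, and 1 was lower, beside 8.62%. The comparisons share libraries and are not independent of each other. Subtracting the change in vector cells from that in MYC-inducible cells gave a median of -0.04 over the members and -0.04 over all genes, and this difference between lines could not be tested.

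A stricter description sets the library with induced MYC against whichever of the other 3 lay nearest to it. By this measure SLC38A1, SLC7A2 and SLC43A1 were at least 1.5-fold above each of the other 3 libraries, 3 of 20 members beside 4.17% of all genes. No member was 1.5-fold below each of them, beside 5.86% of all genes. SLC1A5, SLC1A4 and SLC38A6 stood outside the other 3 libraries by less than 1.5-fold, because vector cells with Dox lay on the same side of their untreated control.

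**Figure D2:**
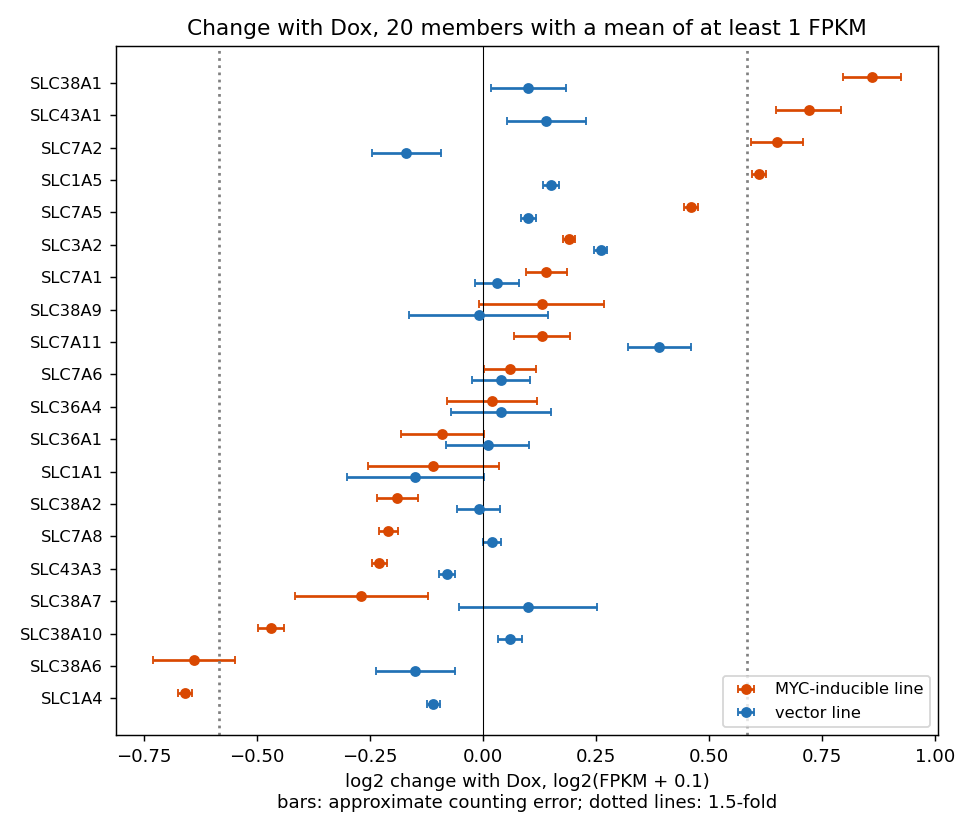
Log2 change with Dox of the 20 members averaging 1 FPKM or more, in MYC-inducible cells and vector cells, with bars for the approximate counting error and dotted lines at 1.5-fold. In MYC-inducible cells 4 members lie beyond the upper line and 2 beyond the lower one, and in vector cells all 20 lie between the lines.

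**Figure D3:**
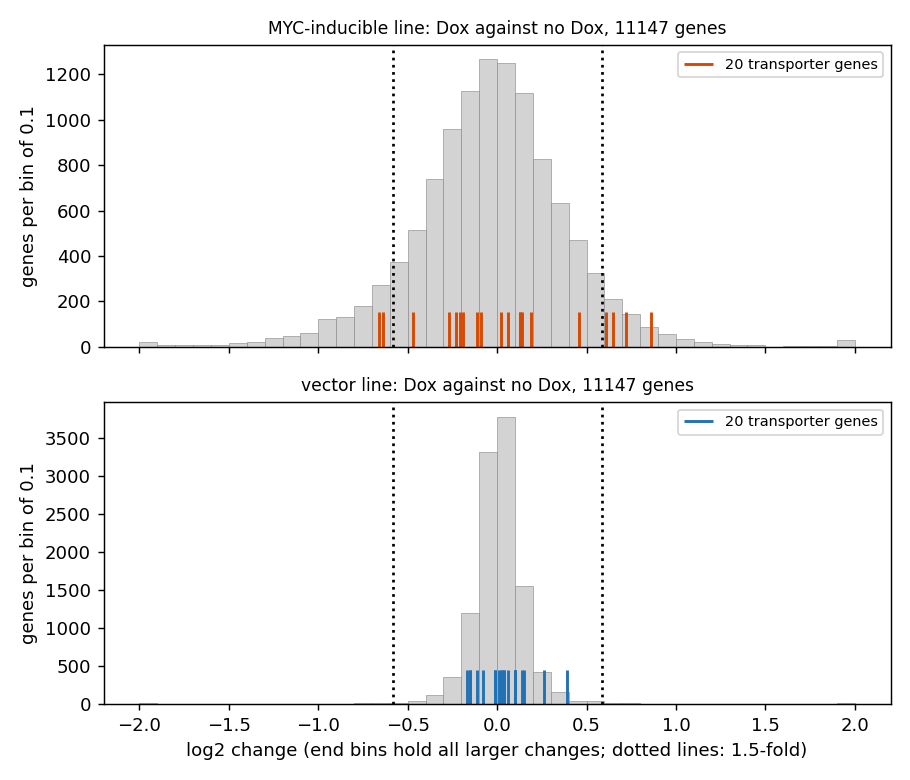
Number of genes in bins of 0.1 of the log2 change with Dox over 11147 genes, in each line, with coloured marks for the 20 transporter genes. The spread over all genes (robust SD) is 0.360 in MYC-inducible cells and 0.107 in vector cells, and the transporter marks lie on both sides of 0 in each line.

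Among the SLC1 carriers, the neutral amino acid exchangers SLC1A5 and SLC1A4 went in opposite directions. SLC1A5, also known as ASCT2, is a main route of glutamine into proliferating cells. It had 114 FPKM in vector cells, 127 FPKM with Dox, 111 FPKM in MYC-inducible cells and 171 FPKM with Dox. Its log2 change was 0.61 in MYC-inducible cells and 0.15 in vector cells, with approximate counting errors of 0.0161 and 0.0179, and 577 of all genes had a larger change. The gene lies on chromosome 19 of GRCh37 from 47278140 to 47291851.

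SLC1A4, or ASCT1, exchanges alanine, serine, cysteine and threonine and lies on chromosome 2 from 65215611 to 65250999. It had 112 FPKM in vector cells and 103 FPKM with Dox, and 113 and 71.4 FPKM in MYC-inducible cells without and with Dox. The 3 libraries without induced MYC lay within 0.13 on the log2 scale, and the induced library was below them all. Its log2 change was -0.66 in MYC-inducible cells and -0.11 in vector cells, with counting errors of 0.0160 and 0.0151. The ratio of SLC1A5 to SLC1A4 was 1.02 in vector cells, 1.23 with Dox, 0.989 in MYC-inducible cells and 2.39 with Dox. Their sum moved little, from 224 to 242 FPKM with Dox in MYC-inducible cells. SLC1A1, the glutamate and cysteine carrier EAAT3, had 1.25 to 1.41 FPKM, with log2 changes of -0.11 and -0.15 that were close to their counting errors of 0.145 and 0.151.

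The heavy chain SLC3A2, known as CD98, was the most abundant member. It had 292 FPKM in vector cells, 349 FPKM with Dox, 296 FPKM in MYC-inducible cells and 338 FPKM with Dox. Both libraries with Dox were above both without it. The log2 change of SLC3A2 was 0.26 in vector cells and 0.19 in MYC-inducible cells, with counting errors of 0.0136 and 0.0130. With Dox, the MYC-inducible line differed from the vector line by -0.05.

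Its light chains were led by SLC7A5 and SLC7A8. SLC7A5, or LAT1, brings leucine and other large neutral amino acids into the cell and lies on chromosome 16 from 87863629 to 87903113. It had 79.5 FPKM in vector cells, 85.4 FPKM with Dox, 82.9 FPKM in MYC-inducible cells and 114 FPKM with Dox. Its log2 change was 0.46 in MYC-inducible cells and 0.10 in vector cells, so it stayed below 1.5-fold, and the induced library was higher than each other library by at least 0.41. SLC7A8, or LAT2, takes a broader range of neutral amino acids. It had 63.4 and 64.2 FPKM in vector cells without and with Dox and 59.2 and 51.0 FPKM in MYC-inducible cells. Its log2 change was -0.21 in MYC-inducible cells and 0.02 in vector cells.

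Of the summed FPKM of the 6 light chains that pair with SLC3A2, SLC7A5 made up 53.2% in vector cells, 54.5% with Dox, 55.4% in MYC-inducible cells and 65.9% with Dox. SLC7A8 made up 42.4%, 40.9%, 39.6% and 29.5% in the same order. The light chains together came to 0.506 of the SLC3A2 level in MYC-inducible cells and 0.510 with Dox, so this ratio was level while the make-up of the light chains shifted. In vector cells the ratio was 0.512 without Dox and 0.449 with Dox.

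SLC7A11, or xCT, imports cystine in exchange for glutamate. It had 2.08 FPKM in vector cells, 2.75 FPKM with Dox, 2.63 FPKM in MYC-inducible cells and 2.88 FPKM with Dox. The vector library without Dox was the low one, and the other 3 libraries lay close together. The log2 change was 0.39 in vector cells and 0.13 in MYC-inducible cells, with counting errors of 0.0696 and 0.0618. Between the untreated lines the difference was 0.33, larger than that with Dox in MYC-inducible cells. SLC7A6, which exchanges cationic for neutral amino acids, had 4.34 to 4.97 FPKM and log2 changes of 0.06 in MYC-inducible cells and 0.04 in vector cells. The light chains SLC7A7 and SLC7A10 stayed under 0.1 FPKM.

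Of the cationic amino acid transporters, SLC7A2 was more than 1.5-fold higher in the induced library and SLC7A1 was not. SLC7A2, or CAT2, carries arginine, lysine and ornithine. It had 2.70 FPKM in vector cells, 2.39 FPKM with Dox, 3.20 FPKM in MYC-inducible cells and 5.10 FPKM with Dox. The induced library was the highest, and the other 3 libraries spread over 0.41 on the log2 scale, the widest such range among the 20 members. The log2 change was 0.65 in MYC-inducible cells and -0.17 in vector cells, with counting errors of 0.0580 and 0.0761. After Dox the MYC-inducible line was above the vector line by 1.06, of which 0.24 was present without Dox. SLC7A1, or CAT1, had 6.43 to 7.29 FPKM and log2 changes of 0.14 and 0.03.

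The SLC38 family held the largest positive change among the 20 members and a negative one beyond 1.5-fold. SLC38A1, or SNAT1, is a sodium-coupled carrier of glutamine and other small neutral amino acids. It had 1.90 FPKM in vector cells, 2.05 FPKM with Dox, 2.31 FPKM in MYC-inducible cells and 4.27 FPKM with Dox. The induced library stood above the other 3, which spread over 0.27 on the log2 scale. The log2 change was 0.86 in MYC-inducible cells and 0.10 in vector cells, with counting errors of 0.0643 and 0.0835, and 196 of all genes had a larger change. With Dox in both lines the difference was 1.03. The gene lies on chromosome 12 from 46576846 to 46663800.

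Its neighbour SLC38A2, or SNAT2, a related carrier on the same strand from 46751971 to 46766556, had 10.1 and 10.0 FPKM in vector cells and 11.0 and 9.63 FPKM in MYC-inducible cells. Its log2 changes were -0.01 and -0.19. The ratio of SLC38A1 to SLC38A2 was 0.188 in vector cells, 0.204 with Dox, 0.209 in MYC-inducible cells and 0.444 with Dox. SLC38A2 thus stayed the more abundant of the pair in each library.

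**Figure D4:**
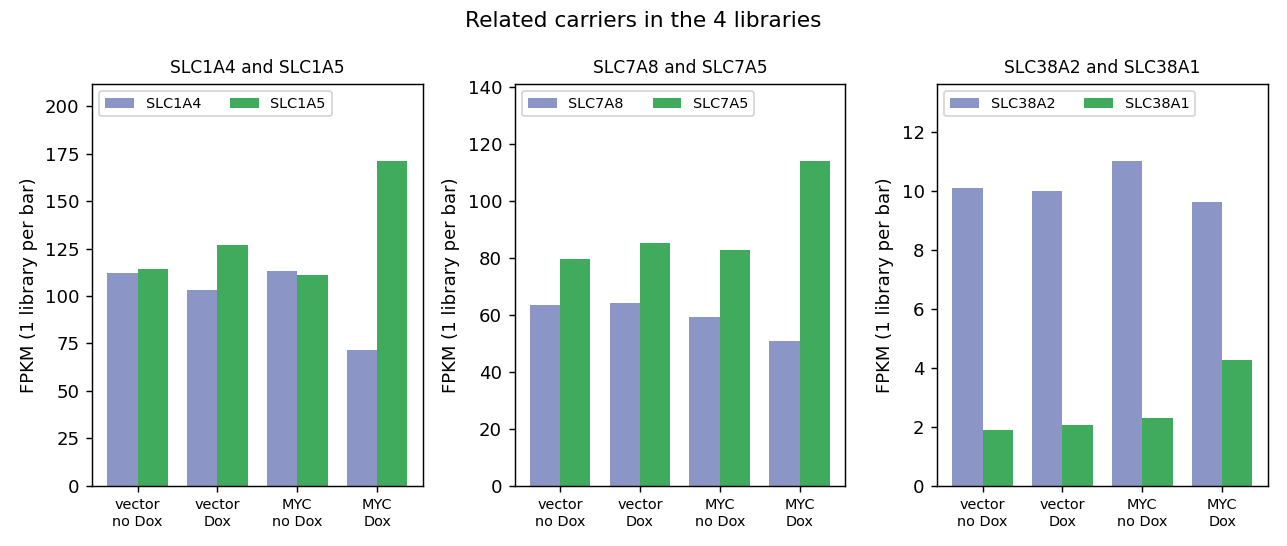
FPKM of 3 pairs of related carriers, 1 library per bar, without error bars because each condition has 1 library. With Dox in MYC-inducible cells SLC1A5 reaches 171 FPKM while SLC1A4 has 71.4 FPKM, SLC7A5 reaches 114 FPKM while SLC7A8 has 51.0 FPKM, and SLC38A1 reaches 4.27 FPKM while SLC38A2 has 9.63 FPKM.

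SLC38A6 had 9.75 FPKM in vector cells, 8.77 FPKM with Dox, 10.0 FPKM in MYC-inducible cells and 6.42 FPKM with Dox. The induced library was the lowest. The log2 change was -0.64 in MYC-inducible cells and -0.15 in vector cells, with counting errors of 0.0902 and 0.0869. SLC38A10 had 34.3, 35.7, 32.5 and 23.4 FPKM in the same order. Its log2 change was -0.47 in MYC-inducible cells, within 1.5-fold, and the difference between the lines with Dox was -0.61, which made it the single member that was at least 1.5-fold lower in that comparison. The lysosomal carriers of this family changed less. SLC38A9, the lysosomal arginine sensor, had 1.89 to 2.20 FPKM and changed by 0.13 on the log2 scale (counting error 0.138). SLC38A7, which exports glutamine from the lysosome, had 1.06 to 1.30 FPKM and changed by -0.27 (counting error 0.147). Summed over the SLC38 family, the level was 59.2 FPKM in MYC-inducible cells and 47.0 FPKM with Dox, and 59.1 and 59.8 FPKM in vector cells. SLC38A10 had the largest part of this sum and was lower with Dox in MYC-inducible cells, while SLC38A1 was higher.

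The SLC43 carriers differed from each other. SLC43A1, or LAT3, is a facilitated carrier of branched-chain amino acids. It had 5.46 FPKM in vector cells, 6.03 FPKM with Dox, 6.03 FPKM in MYC-inducible cells and 10.0 FPKM with Dox. The induced library was above the other 3. The log2 change was 0.72 in MYC-inducible cells and 0.14 in vector cells, with counting errors of 0.0729 and 0.0878. SLC43A1 lies on chromosome 11 from 57252007 to 57283253. SLC43A3, on the same chromosome from 57174427 to 57195053, belongs to the family by sequence but transports purine nucleobases. It had 145 and 137 FPKM in vector cells and 151 and 129 FPKM in MYC-inducible cells, with a log2 change of -0.23 in the latter. The proton-coupled carriers SLC36A1, which acts at the lysosome, and SLC36A4 had 2.02 to 2.33 FPKM and 1.48 to 1.71 FPKM, and their log2 changes in MYC-inducible cells were -0.09 and 0.02.

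Exons of 8 of the 20 members are overlapped by another gene in the annotation, and whether fragments were assigned by strand is not given in the sources used here. Of the members that differed 1.5-fold, SLC38A6 overlaps TRMT5, whose log2 change was 0.41, opposite in sign to that of the member. SLC7A5 has partial pseudogene copies, SLC7A5P1 and SLC7A5P2, with a summed level of 1.96 to 3.11 FPKM.

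Promoters were searched on both strands for the E-box CACGTG, which MYC with MAX can bind, for TGATGNAA, part of the composite site of ATF4 with C/EBP proteins, and for TGACNNNGC, the core of the antioxidant response element. The sequences are RefSeq promoters of build GRCh38.p14, from 250 bases before to 50 bases after each annotated start. Of the 20 members averaging 1 FPKM or more, 17 had at least 1. SLC7A2, SLC7A11 and SLC43A3 had none in the promoter set and were not searched. A gene was counted when any of its starts held the letters. CACGTG was found for 6 of these 17 members, namely SLC1A5, SLC36A1, SLC38A7, SLC43A1, SLC7A5 and SLC7A8, and for 13.2% of the 8381 genes with a promoter and an average of 1 FPKM or more. TGATGNAA was found for 5 of the 17, namely SLC1A4, SLC1A5, SLC38A1, SLC3A2 and SLC7A1, and for 2.51% of those genes. TGACNNNGC was found for 5 of the 17 and for 19.8% of those genes. Genes with more annotated starts have more chances of a match. Of the members with CACGTG, SLC43A1, SLC1A5 and SLC7A5 had log2 changes of 0.72, 0.61 and 0.46 in MYC-inducible cells. The others, SLC7A8, SLC36A1 and SLC38A7, had log2 changes of -0.21, -0.09 and -0.27. Of the members with TGATGNAA, SLC38A1, SLC1A5, SLC3A2 and SLC7A1 had log2 changes of 0.86, 0.61, 0.19 and 0.14 there, and SLC1A4 had -0.66.

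The windows below are shown because they hold a match in SLC1A5, SLC38A1, SLC43A1 and SLC1A4, which differed 1.5-fold, and in SLC7A5, the light chain with the largest change. Each runs 5′ to 3′ on the strand of the gene, capitals mark the matched letters of any of the 3 motifs, and positions are those of an exact match of the promoter in GRCh37. SLC1A5 has matches at different annotated starts. Both SLC1A5 windows and those of SLC38A1 and SLC1A4 lie inside the gene as annotated, downstream of its outermost start, whereas those of SLC43A1 and SLC7A5 reach across it. In the antioxidant core of SLC1A5 and in SLC1A4 the match is on the opposite strand, so the capitals read as its reverse complement. A match is a description of letters and does not show binding.
SLC1A5, chr19:47290551-47290680, minus strand, bases -130 to -1: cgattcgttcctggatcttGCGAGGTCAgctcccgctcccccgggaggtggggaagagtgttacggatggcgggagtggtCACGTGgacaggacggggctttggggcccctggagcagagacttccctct
SLC1A5, chr19:47288072-47288201, minus strand, bases -130 to -1: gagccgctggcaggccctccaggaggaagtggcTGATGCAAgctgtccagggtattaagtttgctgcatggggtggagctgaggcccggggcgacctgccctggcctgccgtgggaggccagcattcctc
SLC38A1, chr12:46660290-46660429, minus strand, bases -130 to 10: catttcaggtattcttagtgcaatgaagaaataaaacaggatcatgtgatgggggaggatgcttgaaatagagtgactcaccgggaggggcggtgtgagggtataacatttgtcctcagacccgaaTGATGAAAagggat
SLC43A1, chr11:57283176-57283305, minus strand, bases -130 to -1: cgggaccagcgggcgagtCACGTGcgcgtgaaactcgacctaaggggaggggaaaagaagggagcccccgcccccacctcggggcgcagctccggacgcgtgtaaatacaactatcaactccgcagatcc
SLC7A5, chr16:87903104-87903253, minus strand, bases -140 to 10: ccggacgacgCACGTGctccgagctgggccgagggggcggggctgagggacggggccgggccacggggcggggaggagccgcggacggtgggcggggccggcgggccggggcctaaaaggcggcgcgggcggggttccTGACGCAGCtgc
SLC1A4, chr2:65216403-65216542, plus strand, bases -130 to 10: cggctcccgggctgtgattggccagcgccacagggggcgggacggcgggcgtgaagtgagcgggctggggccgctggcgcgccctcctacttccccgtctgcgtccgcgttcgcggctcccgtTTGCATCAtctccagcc

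Other amino acid carriers, outside the 6 families, were taken as a list of 23 genes, 14 of which averaged 1 FPKM or more. This list and those below were chosen with earlier results of these data known. The shares over all genes beside their counts are therefore a description and not a test. In MYC-inducible cells 5 of the 14 were at least 1.5-fold higher with Dox and 1 was lower, and in vector cells none was. The shares over all genes in MYC-inducible cells were 5.90% higher and 8.85% lower. The median log2 change of the list was 0.28 in MYC-inducible cells and 0.00 in vector cells. SLC25A22, a mitochondrial glutamate carrier, had 14.2 FPKM in vector cells, 14.6 FPKM with Dox, 14.9 FPKM in MYC-inducible cells and 29.6 FPKM with Dox, a log2 change of 0.99 in the last pair. SLC6A6, the taurine transporter, went from 2.49 to 4.77 FPKM with Dox in MYC-inducible cells, and SLC25A15, the mitochondrial ornithine carrier, from 4.13 to 6.78 FPKM. The other two, named after their values were seen, were SLC6A15 at 6.28 and 12.1 FPKM and SLC16A10 at 3.28 and 5.53 FPKM. SLC6A15 takes up neutral amino acids and SLC16A10 carries aromatic ones. SLC25A29, a mitochondrial carrier of basic amino acids also named after its value was seen, was the lower one at 16.7 and 10.8 FPKM. All 5 higher carriers were at least 1.5-fold above each of the other 3 libraries, beside 4.17% of all genes. SLC25A29 was at least 1.5-fold below each of them, 1 of the 14 beside 5.86% of all genes.

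Amino acids taken up by these carriers are sensed at the lysosome by proteins that control the kinase complex mTORC1. Of 31 genes for this machinery, all averaging 1 FPKM or more, 2 were at least 1.5-fold higher and 2 lower in MYC-inducible cells with Dox, and the median log2 change was -0.09. These counts are near the shares over all genes, 5.90% and 8.85%. In vector cells 1 of the 31 was higher and 0 lower. WDR59 and SEH1L, subunits of the GATOR2 complex, went from 3.88 to 6.34 FPKM and from 13.8 to 21.8 FPKM. The arginine sensor CASTOR1, listed as GATSL3, had 3.46 and 2.22 FPKM, and the fourth gene, SESN3, named after its value was seen, had 2.19 and 1.35 FPKM.

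Several transporter genes belong to the transcriptional response to amino acid shortage that ATF4 drives. Of 13 genes of that response averaging 1 FPKM or more, 7 were at least 1.5-fold higher with Dox in vector cells and 3 in MYC-inducible cells, where 1 was lower. Over all genes 0.709% were higher in vector cells, and 5.90% were higher and 8.85% lower in MYC-inducible cells. The median log2 change was 0.59 in vector cells and 0.36 in MYC-inducible cells. This list shares SESN2 with the sensing genes above and CHAC1 with the glutathione genes below, so the lists are not independent. ASNS, asparagine synthetase, had 8.88 and 13.4 FPKM in vector cells and 6.72 and 21.1 FPKM in MYC-inducible cells. ATF4 had 209 and 224 FPKM in vector cells and 197 and 303 FPKM in MYC-inducible cells. TRIB3, a pseudokinase named after its values were seen, had 19.3 and 39.7 FPKM in vector cells and 19.4 and 29.6 FPKM in MYC-inducible cells, so its change was the larger one in vector cells. VLDLR, a lipoprotein receptor, went from 2.11 to 1.16 FPKM in MYC-inducible cells. Genes of the lists were named only when past 1.5-fold in MYC-inducible cells, so the 7 genes higher in vector cells are not all shown.

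Cystine brought in by SLC7A11 feeds the synthesis of glutathione. Of 13 genes for cystine use, glutathione and the related antioxidant response averaging 1 FPKM or more, none was at least 1.5-fold higher with Dox in MYC-inducible cells and 3 were lower, and the median log2 change was -0.15. Over all genes 5.90% were higher and 8.85% lower, and in vector cells 1 of the 13 was higher and 0 lower. HMOX1, heme oxygenase, had 109.6 FPKM in MYC-inducible cells and 63.5 FPKM with Dox. NQO1, a quinone reductase, had 427 and 257 FPKM there, and 417 and 316 FPKM in vector cells, so the libraries with Dox were the lower ones in both lines. GGT7 had 13.1 and 8.52 FPKM in MYC-inducible cells.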

How the data were processed

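RNA-Seq was made from 4 cultures of SK-MEL-28 cells, 1 per condition, and grouped by sample title. The deposited values are FPKM, made by the authors for each gene symbol in every library. The submitters' processing notes name TopHat2 2.0.14, Cufflinks and the builds hg19 and GRCh37, and the annotation is not given in the sources used here. From 27032 rows, 1 that names no gene was dropped, and rows sharing a symbol were summed. No member had more than 1 row.

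The members and lists were chosen with earlier results of these data known. Changes were differences of log2(FPKM + 0.1), which understates changes of low genes, over genes averaging 1 FPKM or more. With FPKM and 1 library per condition, neither a count model nor a test was used. Named genes were all members, and from each list up to 3 genes whose changes in the lines differed most among those past 1.5-fold. Depth came from the steps between values of 183 low genes with a single annotated transcript (quartiles for the first library, 35500000 and 41000000 fragments). Approximate fragments used the length of the canonical transcript of GENCODE release 44 on GRCh37, and counting errors, given as 1 SE of the log2 change, cover the sampling of fragments only. The calculation was tested on simulated libraries with 2-fold changes, which checks the arithmetic only. How reliable calls near 1.5-fold are cannot be read from it. Alternatives changed the pseudocount, the filter, the scaling, the threshold, the treatment of repeated symbols and the average. Calculations ran in Python 3.11.15 with pandas 2.3.3 and numpy 2.4.6, and plots were drawn with matplotlib 3.10.9. Some overlapping and marker genes are not reported here.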

Additional observations from a re-analysis of the deposited data

How the results depend on the processing

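No paired analysis was possible because there was a single library for every condition, and for that reason none was left out. Of 207 recalculated summary values, 175 stayed within 1.5 times for counts or within 0.107 for medians, the spread of all genes between vector libraries, and 32 moved further. No member past 1.5-fold changed sign, SLC36A4 went from 0.02 to -0.02 with libraries rescaled to the same sum, and 3 of 151 recalculated member values moved by more than 0.107, all with a pseudocount of 1, to 0.54 for SLC7A2, 0.67 for SLC38A1 and -0.16 for SLC38A7.

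At a threshold of 2-fold in MYC-inducible cells, 0 members were higher and 0 lower, and 0 were above each other library. Against vector cells with Dox, 2 members were higher at 2-fold, SLC7A2 by 1.06 and SLC38A1 by 1.03 on the log2 scale, and 0 were lower. At 2-fold the lists had 0 higher and 0 lower for other carriers, 0 and 0 for lysosomal sensing, 1 and 0 for the starvation response and 0 lower for glutathione genes. Shares over all genes are not given for this threshold or for the other filters below. The counts there are therefore not read as a result about the members or lists. At an average of 5 FPKM or more, which leaves fewer genes, 2 members were higher in MYC-inducible cells, 1 against vector cells with Dox and 1 above each other library, and the median change was -0.19. This filter gave 2 higher other carriers, 1 higher and 0 lower sensing genes and 0 lower starvation genes. Without a filter, 5 members were higher and 2 lower than vector cells with Dox, 2 lower between untreated lines, 5 above and 1 below each other library, and 2 other carriers lower. The calls added in this way are of genes averaging below 1 FPKM, among them SLC7A4 with approximately 2.02 fragments in the induced library. With a pseudocount of 1, 1 member was lower, as were 0 sensing and 0 starvation genes. Rescaling to the same sum, which set the median of all genes to -0.07, gave 2 lower other carriers and 1 higher starvation gene. The median ratio gave 0 lower other carriers and 1 lower sensing gene. For the scalings and the pseudocount, the cause was not tested. Depth limits the low members most, as for SLC38A7 with a counting error of 0.147.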
